A study of Mus musculus with 2 samples.

Results

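Oncofetal liver genes are active in the fetal liver, are shut down after birth, and can return in regenerating or malignant liver. The 8 genes described here were chosen by name, as known genes of this kind: Afp, H19, Igf2, Dlk1, Gpc3, Igf2bp3, Lin28b and Cd24a. They are 8 of the 33224 gene symbols in the table. All 8 had a row, and the rows of a symbol were summed. RNA-sequencing was done on liver of male C57BL/6 mice 48 hr after partial hepatectomy (PH), the surgical removal of part of the liver that makes the remainder regrow. One group was wild-type (WT) and the other PPARβ-null (KO), lacking the nuclear receptor that the gene Ppard encodes. Both are labelled as 4 months old, whereas the paper's methods give only a range of months that includes 4. The sources used here do not say how many mice gave the RNA of a library. There was 1 library of each genotype (2 in all), so nothing below could be tested against the spread between animals. The sample columns of the table also name a different sequencing lane for each genotype, so genotype, animal and lane cannot be told apart.

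The fetal liver state is held by several kinds of molecule. Afp is the main plasma protein of the fetus and is replaced by albumin from the neighbouring gene. Igf2 is a fetal growth factor, and H19 is a noncoding RNA from the same imprinted domain, each made from only one parental copy. Lin28b and Igf2bp3 are RNA-binding proteins of fetal tissues. Dlk1, Gpc3 and Cd24a are surface proteins of hepatoblasts, progenitor cells or other immature cells. In adult liver the repressors Zhx2 and Zbtb20 keep Afp low, and let-7 microRNAs oppose the Lin28b and Igf2bp3 messages. This background comes from general knowledge and not from these data.

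In regenerating WT and KO livers these genes were low. Levels are in FPKM, fragments scaled to the length of the transcript and to all mapped fragments of the library, which allows genes of unlike length to be compared. Afp was the highest member in both libraries, at 2.92 FPKM in WT and 2.46 in KO. Cd24a and Gpc3 followed below 1 FPKM, the next 4 lay at or near 0.1 FPKM or under it, and Lin28b was listed at 0 in both. Of the 7 members with a value, 6 were lower in KO and 1, Igf2bp3, was higher, but with log2 KO/WT centred on the median of genes at 1 FPKM or more Afp was at 0.00 and H19 turned to +0.04. A lower value in KO was common in this table. Of the 15727 genes with a mean of at least 0.1 FPKM over the libraries, 74.8% were lower in KO by some amount, and the median log2 KO/WT was -0.25.

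The promoters of the members differ in base composition, and the sequences of the most unlike pair are shown for that reason. RefSeq (GRCm38.p6) gave promoters for 6 of the 8 members, 9 promoters in all, and no entry for H19 or Cd24a. Each sequence holds the 250 bases before the annotated start, 5′ to 3′, and the capitals mark CpG, the dinucleotide that DNA methylation acts on. The Afp promoter lies at chr5:90490464-90490713 on the plus strand and the Gpc3 promoter at chrX:52613975-52614224 on the minus strand.
Afp promoter: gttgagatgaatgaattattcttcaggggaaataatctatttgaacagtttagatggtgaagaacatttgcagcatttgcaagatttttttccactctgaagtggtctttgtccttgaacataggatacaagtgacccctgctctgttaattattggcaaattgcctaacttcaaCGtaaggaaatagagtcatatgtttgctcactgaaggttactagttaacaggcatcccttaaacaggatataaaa
Gpc3 promoter: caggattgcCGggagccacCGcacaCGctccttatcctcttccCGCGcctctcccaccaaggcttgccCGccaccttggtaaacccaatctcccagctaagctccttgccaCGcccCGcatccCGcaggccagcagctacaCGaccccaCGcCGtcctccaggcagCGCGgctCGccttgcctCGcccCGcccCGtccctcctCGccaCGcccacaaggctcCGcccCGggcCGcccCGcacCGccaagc
The Afp promoter holds 1 CpG and the Gpc3 promoter 25, against a median of 6 over 32851 promoters. The promoters of Dlk1, Igf2bp3 and Lin28b hold 8, 21 and 6. The 4 Igf2 promoters hold 1, 10, 22 and 6. Both strands were searched for 4 short motifs that do not overlap each other. GTTAAT, part of the site of the liver factor HNF1, was found in the Afp promoter, 105 to 100 bases before the start, and in 6.43% of all promoters. TATAAA, the letters of the TATA box motif, was found there 7 to 2 bases before the start, and in 12.4% of all promoters. AGGTCA, the half-site bound by PPAR and many other nuclear receptors, was found in 1 of the 9 promoters, an Igf2 promoter, and in 14% of all. TTTNNCGC, an E2F motif, was found in none of the 9 and in 4.28% of all. A match is a description of the letters only, and none of these promoters was measured for binding or methylation here.

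The row of H19 also names Mir675, the microRNA cut from its RNA, and for that reason the sequences of its arms are given. The arms are shown from RefSeq (GRCm38.p6), 5′ to 3′, with the seed (bases 2 to 8, which pair with targets) in capitals.
miR-675-5p: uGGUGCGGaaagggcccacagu
miR-675-3p: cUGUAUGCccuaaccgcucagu
The arms have unlike seeds. The libraries were not made from small RNA, so neither mature arm was measured, and the value of the row is not a level of miR-675.

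**Figure D1:**
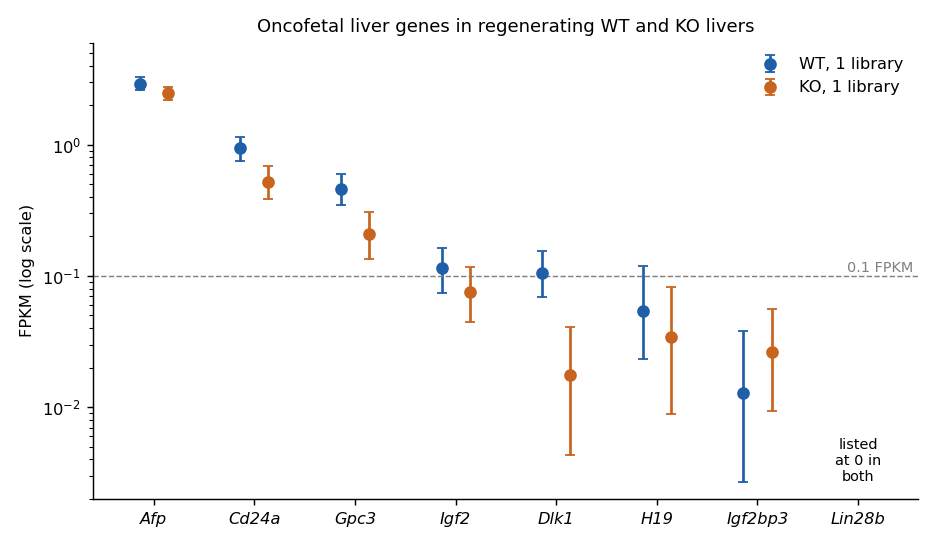
FPKM (log scale) of the 8 genes in the WT library (blue) and the KO library (orange), ordered by mean level. Bars are 95% intervals for counting error only, taken at the length of the longest annotated transcript. Lin28b was listed at 0 in both libraries, and the dashed line marks 0.1 FPKM. Cd24a, Gpc3 and Dlk1 have bars that do not meet between the libraries, and Igf2bp3 is the only gene with the KO point above the WT point.

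Afp encodes alpha-fetoprotein, the fetal member of the albumin family and a serum marker of liver cancer. Its 2.92 FPKM in WT corresponded to about 322 fragments and its 2.46 FPKM in KO to about 277. These fragment numbers were estimated from the spacing of FPKM values and the length of the longest annotated transcript. For genes with several annotated transcripts, a shorter one would give fewer fragments and wider intervals. The WT/KO ratio was 1.19, with a 95% interval of 1.01 to 1.40 that covers counting error only. On the log2 scale with 0.1 FPKM added, which understates the difference of low genes, KO/WT was -0.24. The median of all genes with a mean of at least 1 FPKM had the same value, -0.24. Afp was a moderate gene in this liver, with 9397 symbols higher in mean FPKM.

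The Afp total joined 2 rows that pointed in opposite directions. Both rows span chr5:90919740-90944768 on NCBI37 (mm9), the build of all file positions given here, and reach 6835 bases past the annotated end of the gene. One row held 2.10 FPKM in WT against 1.42 in KO, so that WT/KO was 1.48. The other held 0.822 FPKM in WT against 1.04 in KO, so that WT/KO was 0.789. The kit did not mark strand, and which transcripts each row holds was not tested. The direction for Afp therefore depends on the row that is read. Afm, the next albumin family gene, starts 3.19 kb beyond these rows and had 73.4 FPKM in WT and 62.4 in KO. Its ratio of 1.18 was close to that of the Afp total. Alb itself was marked HIDATA, too deep for Cuffdiff to estimate, and has no value.

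Gpc3 and Cd24a are surface molecules, and both were lower in KO. Gpc3 encodes glypican 3, a heparan sulfate proteoglycan that restrains growth in the embryo and marks hepatocellular carcinoma. The row, chrX:49625603-49972224, had 0.461 FPKM in WT (about 53.9 fragments) and 0.210 in KO (about 25.1). The ratio was 2.19 with a counting interval of 1.35 to 3.70, and log2 KO/WT with 0.1 FPKM added was -0.85. Cd24a encodes a small mucin-like protein of immature cells, bile duct cells and leukocytes. The row, chr10:43298975-43304068, had 0.941 FPKM in WT (about 90.0 fragments) and 0.524 in KO (about 51.2). The ratio was 1.79 (1.26 to 2.59), and log2 KO/WT was -0.74. For both genes the libraries differed by more than counting error, but how far 2 livers of the same genotype differ was not measured. Gpc4, which lies 107 kb from Gpc3 on the X chromosome and encodes another glypican, had 17.3 FPKM in WT and 18.2 in KO.

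Dlk1 showed the largest ratio of the 7 genes with a value. Dlk1 encodes a transmembrane relative of the Notch ligands that marks hepatoblasts. The row, chr12:110691059-110701545, had 0.106 FPKM in WT (about 26.0 fragments) against 0.0176 in KO (about 4.42). The ratio was 5.99, with a wide counting interval of 2.30 to 26.2. That interval uses the longest of 10 annotated transcripts and would be wider for a shorter one. With 0.1 FPKM added, log2 KO/WT was -0.81, and with 0.01 FPKM added it was -2.07. The mean of Dlk1 was below 0.1 FPKM, so its size depends strongly on how low values are treated. Of its neighbours in the imprinted domain, Meg3 and Rian were higher in KO, and the direction of Mirg was not separable from counting error. Meg3, the noncoding RNA made from the other parental copy, had 1.02 FPKM in WT and 2.28 in KO, and KO/WT was 2.24 (counting interval 2.06 to 2.44). Rian, the next noncoding RNA, had 0.337 FPKM in WT and 0.821 in KO, and KO/WT was 2.43 (1.91 to 3.14). Mirg, the microRNA host gene beyond it, had 0.103 FPKM in WT and 0.0732 in KO. Its KO/WT was 0.711 with a counting interval of 0.269 to 2.20, and its mean was below 0.1 FPKM. All 3 rows also name small RNAs, so their values are not those of the host alone.

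Igf2 and H19 share an imprinted domain on chromosome 7, and both were close to the limit of detection. Igf2 (chr7:149836673-149856261) had 0.114 FPKM in WT (about 28.4 fragments) and 0.0750 in KO (about 19.1). Its WT/KO ratio was 1.52 with a counting interval of 0.811 to 2.85. H19 (chr7:149761434-149764048) had 0.0541 FPKM in WT (about 6.52 fragments) and 0.0344 in KO (about 4.24). Its ratio was 1.57 (0.454 to 8.33). Neither difference was larger than counting error. The Igf2 row reaches 3540 bases past the annotated gene and shares its span with Igf2as and Mir483. Igf2as had 0.00810 FPKM in WT and 0.00398 in KO, and Mir483 was listed at 0 in both. Ins2, 8.3 kb beyond Igf2, was listed at 0 in both libraries, while Mrpl23, on the far side of H19, had 10.5 FPKM in WT and 8.01 in KO.

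Igf2bp3 and Lin28b are the RNA-binding members. Igf2bp3 (chr6:49023794-49164953), which binds Igf2 and other messages, had 0.0127 FPKM in WT (about 2.92 fragments) and 0.0265 in KO (about 6.21). The KO/WT ratio was 2.09 with a counting interval of 0.418 to 12.1, so the direction was not separable from counting error. Its row extends 11426 bases beyond the annotated gene and shares its span with 2410003K15Rik, which had 14.1 FPKM in WT and 10.8 in KO. Lin28b (chr10:45096426-45206201), which blocks let-7 maturation, was listed at 0 in both libraries. So were 38.1% of all symbols, and a value of 0 in this table can also be a failed estimate. The Lin28b row was marked NOTEST (not tested) rather than FAIL.

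**Figure D2:**
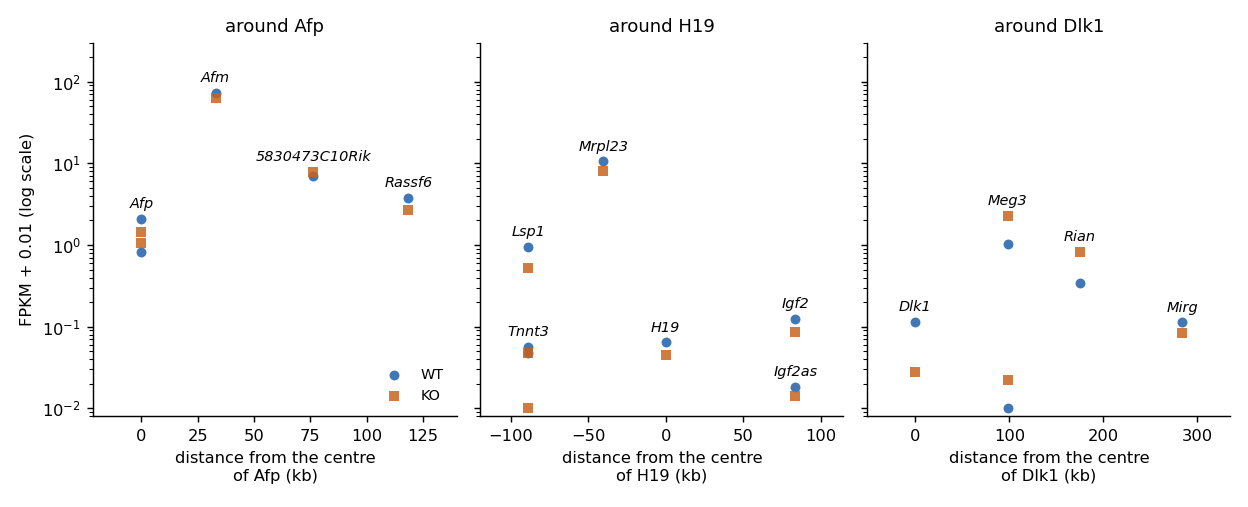
FPKM + 0.01 (log scale) of rows above 0 in either library against distance in kb from the centre of Afp, H19 or Dlk1, for WT (blue circles) and KO (orange squares). Afp has 2 rows at the same place, Igf2 and H19 lie far below Mrpl23, and Meg3 and Rian have higher KO values while Dlk1 has a higher WT value.

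The order of the members by level was alike at the top of both libraries. Afp, Cd24a, Gpc3 and Igf2 held the first 4 places in WT and in KO. The counting intervals of Afp, Cd24a and Gpc3 met none of their neighbours' in either library. Igf2, Dlk1, H19 and Igf2bp3 each overlapped the next in WT. In KO the order was Igf2, H19, Igf2bp3 and Dlk1, and each again overlapped the next. The summed level of the 8 genes was 4.61 FPKM in WT and 3.35 in KO, of which Afp made up 63.4% and 73.5%.

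A difference over 2-fold was called for genes with a mean of at least 0.1 FPKM, on log2 values with 0.1 FPKM added. Only Afp, Cd24a and Gpc3 passed that floor, and 5 members did not. Of the 3, 0 were called lower in KO and 0 higher. Over all 15727 genes that passed, 9.94% were called lower and 2.08% higher. These shares are 1563 and 327 genes, which became 1080 and 514 after centring on the expressed genes and 1204 and 465 with equal upper quartiles. For these 3 the log2 KO/WT had its median at -0.74, beside -0.25 over all genes. With 0.01 FPKM as both floor and addition, a setting chosen after the values were seen, 7 members passed. Of these, 2 were called lower, Dlk1 and Gpc3, and 0 higher, beside 16.9% and 5.29% of all genes. The counting interval of KO/WT lay below 1 for 4 of these 7 (Afp, Cd24a, Gpc3 and Dlk1) and above 1 for 0. It included 1 for Igf2, H19 and Igf2bp3. Afp counts here by its summed total, whose interval ended at 0.992, although its 2 rows pointed in opposite directions. Of 19081 genes above that lower floor with an annotated length, 47.6% had an interval below 1 and 11.1% above it. Set against the median ratio of expressed genes, the interval lay below for 3 members (Afp then included it) and above for 0, beside 29.1% and 24.2% of all genes.

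**Figure D3:**
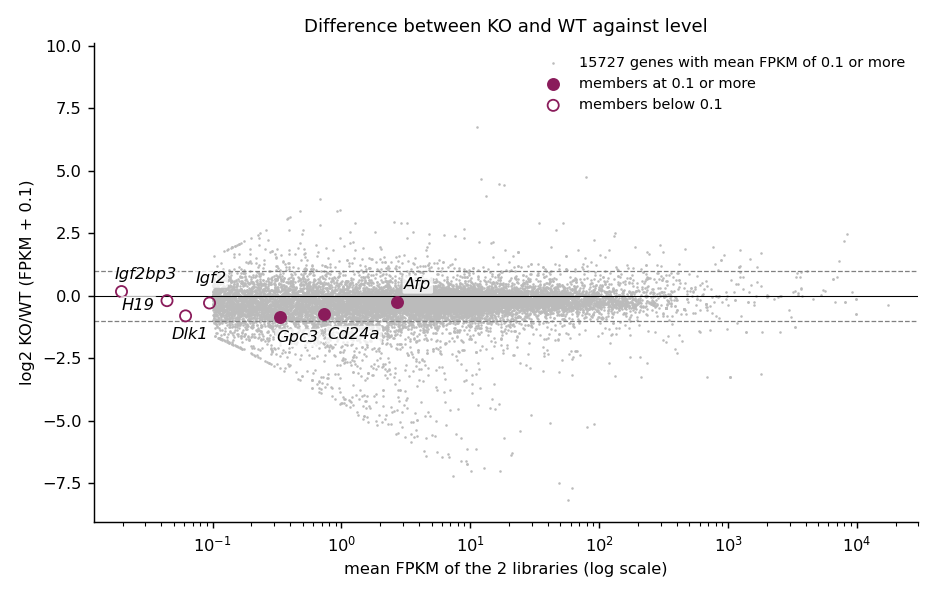
Log2 KO/WT with 0.1 FPKM added against mean FPKM (log scale) for 15727 genes (grey), the 3 members at 0.1 FPKM or more (filled) and the 4 below it that have a value (open). Dashed lines mark 2-fold; Afp lies in the middle of the grey genes and all 7 members lie between the lines.

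The listed regulators of Afp and H19 differed less than 2-fold. All 18 listed repressors and activators of Afp and H19 passed the floor, 0 were called in either direction, and their median log2 KO/WT was -0.27. Zhx2, a repressor of Afp, H19 and Gpc3, had 4.13 FPKM in WT and 3.05 in KO. Zbtb20, the repressor that shuts down Afp after birth, had 11.9 FPKM in WT and 6.76 in KO, and its log2 KO/WT of -0.81 was the lowest of the list. Hnf4a, an activator of liver genes, had 172 FPKM in WT and 193 in KO. Cebpa and Cebpb, activators as well, had 60.1 and 75.8 FPKM in WT and 45.8 and 59.8 in KO. Of 4 further genes in a list named for genes held down by Zhx2, 2 were called lower (Lpl and Scd2) and 1 higher (Elovl3). Over all genes that passed the floor, 9.94% were called lower and 2.08% higher. The direction in which Zhx2 acts on each of the 4, Elovl3 included, was not tested, and the list name does not establish it. Elovl3, a fatty acid elongase, had 41.5 FPKM in WT and 217 in KO.

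The partners of Igf2 differed more among themselves. Of 12 receptors, binding proteins and related factors, 2 were called lower and 1 higher, with a median of -0.27. Over all genes that passed the floor, 9.94% were called lower and 2.08% higher. Igfbp1, a secreted liver protein that binds IGFs, had 108 FPKM in WT and 360 in KO. Igfbp5 had 1.69 FPKM in WT and 0.544 in KO, and Igfbp6 had 1.14 and 0.424. Igf1, the IGF of the adult liver, had 292 FPKM in WT and 260 in KO, far above Igf2 in both. Igfbp4, the highest of the list, had 587 FPKM in WT and 709 in KO. In the let-7 and Lin28 list, 10 of 14 genes passed, 1 was called lower and 2 higher, and the median was -0.35. Hmga1, a chromatin protein of growing cells, had 15.0 FPKM in WT and 4.51 in KO. Mycn, a transcription factor, had 0.296 FPKM in WT and 0.733 in KO, and Arid3a, another, had 0.211 and 0.529.

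Imprinted genes related to H19, Igf2 and Dlk1 went both ways. Of the 23 listed, 18 passed, 3 were called lower and 2 higher, and the median was -0.44. The shares called over all genes that passed were 9.94% lower and 2.08% higher. Phlda2, Mest and Peg10 were the lower ones, and Meg3 and Rian the higher ones. Mest, an enzyme of fetal mesoderm, had 1.49 FPKM in WT and 0.580 in KO. The highest genes of the list were not called: Slc38a4, an amino acid transporter, had 386 FPKM in WT and 237 in KO, and Gnas, a G protein subunit, had 149 and 159. Among 14 imprinting control factors, 10 passed, 2 were called lower and 1 higher, and the median was -0.44. Uhrf1, which brings the methyltransferase to newly copied DNA, had 9.52 FPKM in WT and 0.237 in KO. Dnmt1, that methyltransferase, had 5.65 FPKM in WT and 1.61 in KO. Ctcfl, a relative of the insulator protein CTCF, had 0.721 FPKM in WT and 2.19 in KO.

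Of the relatives of the surface members that passed the floor, 3 of 4 glypicans, 9 of 10 Notch pathway genes and 2 of 3 CD24 partners were lower in KO by some amount, beside 74.8% of all genes. Of 5 other glypicans, 4 passed and 1 was called lower, Gpc6, with 0.422 FPKM in WT and 0.124 in KO. The share called lower over all genes that passed was 9.94%, and 2.08% were called higher. Gpc1 had 2.24 FPKM in WT and 1.24 in KO. Of 12 Notch pathway genes, 10 passed, 2 were called lower (Dll4 and Heyl) and 0 higher, with a median of -0.60. Hes1, a Notch target, had 7.02 FPKM in WT and 11.9 in KO. Of 4 partners of CD24, 3 passed and 0 were called in either direction. The Selp row is joint with F5 and the L1cam row with Arhgap4, Naa10 and Renbp. The Gpc2 row is joint with Gal3st4 and the Notch4 row with Gpsm3, so none of these values belongs to a single gene. Among the genes lower by some amount, the counting intervals of Gpc2, Notch3, Notch4, Jag1 and Hey1 included a KO/WT of 1.

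Other oncofetal and fetal liver genes had lower KO values wherever they passed the floor, on the values as deposited. Of 18 listed, 16 passed, and all 16 were lower in KO by some amount (74.8% of all genes were). Of the 16, 7 were called lower and 0 higher, beside 9.94% and 2.08% of all genes, and the median was -0.79. Sox9 (log2 KO/WT -0.13) and Aldoa (-0.19) lay above the median of expressed genes, -0.24, and so above 0 after centring on it. The counting intervals of Sox9 and Sox4 included 1. Tff3, a secreted trefoil peptide, had 7.97 FPKM in WT and 0.327 in KO. Spink3, a trypsin inhibitor, had 0.946 FPKM in WT and was listed at 0 in KO. Lgals1, a galectin, had 22.3 FPKM in WT and 6.36 in KO, and Golm1, a Golgi protein raised in liver disease, had 2.73 and 0.765. Hk2, Aldoc and Gpi1 of this list are glycolysis genes that the study picked from these libraries, so their direction, including that of Hk2 and Aldoc among the 7 called, is not independent evidence. The 8 proliferation markers were all called lower, with a median of -6.19. Mki67, which marks cycling cells, had 10.9 FPKM in WT and 0.0445 in KO. The paper names cell cycle control among the main functions of genes that differ between these libraries. The direction of the proliferation list is therefore not independent evidence either. The paper also reports that proliferating hepatocytes peaked later in KO than in WT. Genotype and stage of regeneration thus cannot be told apart in these libraries. The part of stage in the values of the oncofetal genes and of the other lists was not tested.

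**Figure D4:**
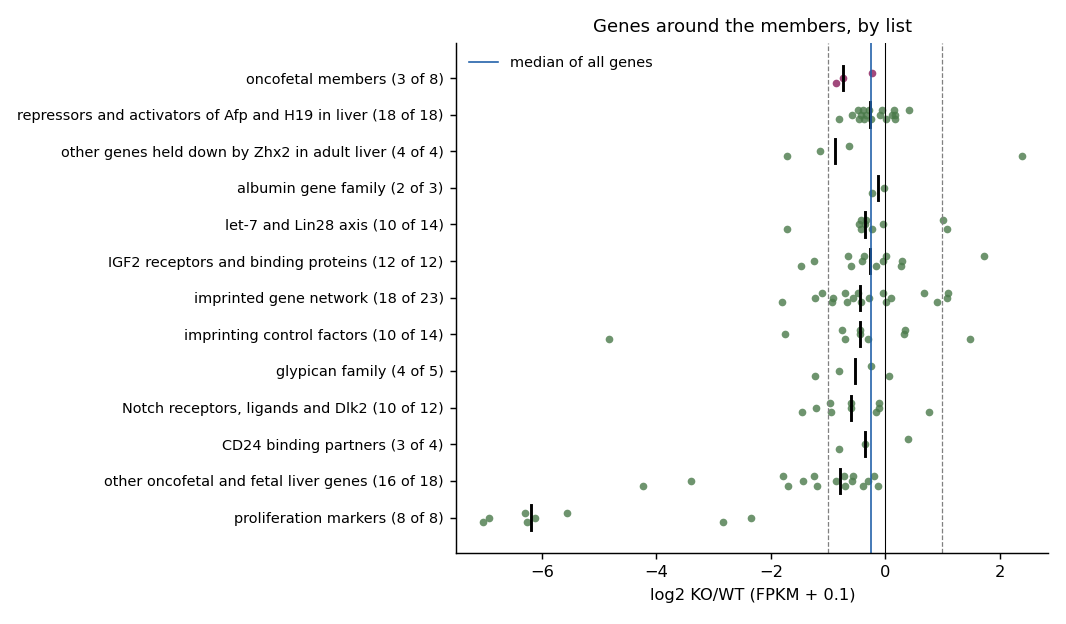
Log2 KO/WT with 0.1 FPKM added of the genes with a mean of at least 0.1 FPKM in each list, with the number passing and the number listed. Black bars are list medians, the blue line is the median of all genes (-0.25) and dashed lines mark 2-fold; the proliferation markers lie farthest to the left, and the 3 oncofetal genes (purple) between 2-fold lower and equal.

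Lower KO values were common among markers of other liver cells, as they were among all genes above the floor. Of all such genes, 74.8% were lower in KO by some amount and 9.94% were called lower. In bulk liver, fewer cells of a type and less RNA per cell cannot be told apart. Of 9 cholangiocyte (bile duct) markers, 7 passed and all 7 were lower in KO, 2 of them over 2-fold, Krt7 and Krt19. Krt19 had 1.72 FPKM in WT and 0.559 in KO. The summed level of this list was 65.7 FPKM in WT and 60.7 in KO, its median was -0.13 (+0.11 after centring on the expressed genes), and Sctr was listed at 0 in both. Of 10 stellate cell and fibroblast markers, all were lower in KO and 4 were called, Acta2, Col1a1, Col1a2 and Col3a1, with sums of 63.8 and 28.2 FPKM. Of 5 mesothelial markers, all were lower and 4 were called, with sums of 287 and 126 FPKM, of which Krt8, also a hepatocyte keratin, made up most. None of the stellate or mesothelial markers was listed at 0.

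The lists of other cells differed among themselves. Of 8 Kupffer cell and macrophage markers, 7 were lower and 1 was called, with sums of 60.8 FPKM in WT and 38.5 in KO. Of 8 endothelial markers, 7 were lower and 1 was called, with sums of 55.8 and 39.2 FPKM. Neutrophil markers summed to 13.2 FPKM in WT and 7.07 in KO, with 4 of 9 above the floor and Camp, Mpo and Ly6g listed at 0 in both. The B cell list summed to 0.582 and 0.286 FPKM with 2 of 7 above the floor, and the T and NK cell list to 0.838 and 0.449 with 2 of 7. Erythroid markers, of interest because fetal liver makes blood, summed to 296 FPKM in WT and 253 in KO, with Rhag listed at 0. Their median of -0.20 was above that of all genes and +0.04 after centring, and Alas2, an enzyme of heme synthesis, was higher in KO, with 20.6 FPKM in WT and 37.5 in KO. Of the skeletal muscle markers 1 of 6 was above the floor, and of the pancreatic acinar markers 1 of 6, with 5 listed at 0 in both. The 10 hepatocyte markers, which define the labelled tissue, had a median of +0.07 and sums of 19698 FPKM in WT and 21222 in KO, and none was listed at 0. They went both ways, 5 lower and 5 higher, with Ass1 and Cps1 of the urea cycle called lower and Cyp2e1, a cytochrome P450, called higher. Ass1 had 2672 FPKM in WT and 983 in KO, Cps1 1597 and 743, and Cyp2e1 1039 and 2319. The part of these cell types in the values of the oncofetal genes was not tested.

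**Figure D5:**
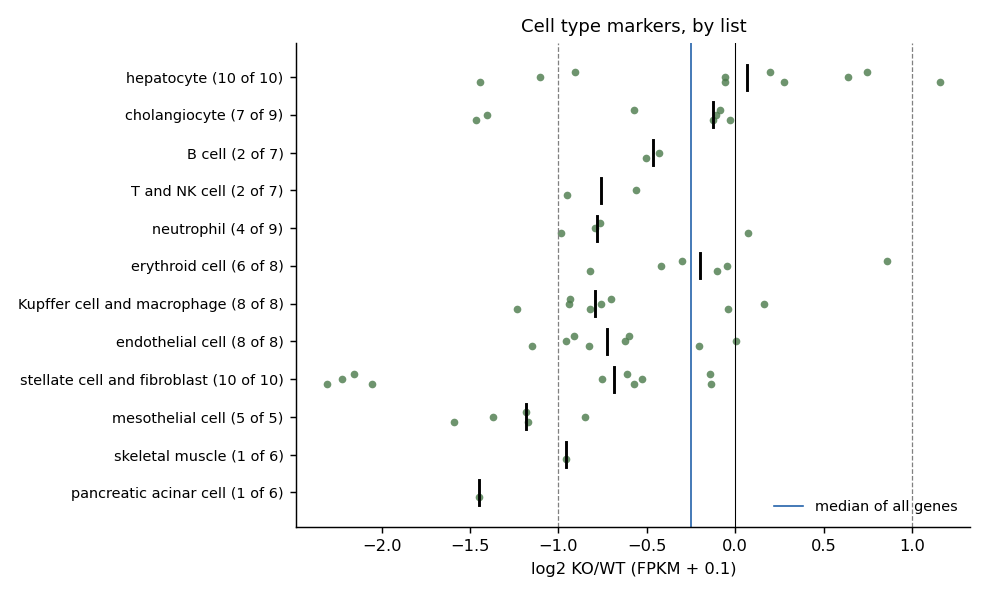
Log2 KO/WT with 0.1 FPKM added of cell type markers with a mean of at least 0.1 FPKM, with the number passing and the number listed. Black bars are list medians, the blue line is the median of all genes (-0.25) and dashed lines mark 2-fold; hepatocyte, cholangiocyte and erythroid medians lie to the right of the blue line and the other 9 to its left.

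Across the whole series, the depth was alike. In each library 1 fragment on a transcript of 1 kb was worth about 0.019 FPKM, 0.01895 in WT and 0.01855 in KO. Ppard, the gene removed in KO, had 2.67 FPKM in WT and 2.42 in KO, and a value for the whole gene does not show the loss of a single exon. The genotype labels were therefore not checked by this value.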

How the data were processed

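Alignment by the authors was to NCBI37 (mm9) with TopHat2 2.0.0. They assembled transcripts with Cufflinks 1.3.0 and estimated FPKM per locus with Cuffdiff, per the paper's methods and the submitters' processing notes. The labels give paired-end and the methods single-end reads. The deposited FPKM values are scaled to mapped fragments, and further scaling by Cuffdiff is not given in the sources used here. The deposited columns of fold changes, test statistics, p-values and q-values are the authors' own comparison and were not used.

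Of 38016 rows, 21 marked HIDATA were left out. Rows with other marks were kept with their deposited FPKM. Among the genes named here, the rows of Hnf4a, Lpl, Col1a2 and Selp were marked FAIL. Of the members, H19, Igf2, Dlk1, Igf2bp3 and Lin28b were marked NOTEST. A joint row was given to each symbol it names, and rows of a symbol were summed, giving 33224 symbols. Log2 ratios used 0.1 FPKM added to each value, and counts over 2-fold used genes with a mean of at least 0.1 FPKM. Fragment numbers were estimated from the spacing of low values in single-exon genes of at least 600 bases (255 in WT and 240 in KO). They also used the longest annotated transcript of each symbol, so they would be too high where a shorter one was expressed. Ratio intervals are exact conditional binomial, and level intervals exact Poisson, at 95%, from the estimated numbers and so for counting error only. The estimate was tested on simulated data. Locus spans were compared with GENCODE vM1 on NCBIM37. Promoters and microRNAs came from RefSeq tables. Members and the 24 further lists (12 of genes and 12 of markers) were chosen with earlier results of these data known. Besides the 8 members, genes to name were their nearest named neighbours and in each list the 3 highest genes and up to 6 over 2-fold. Not all of these are described. Zhx2, Zbtb20, Mirg, Sctr, Rhag, Camp, Mpo, Ly6g, Sox4, Sox9, Gpc2, Notch3, Notch4, Jag1 and Hey1 fall outside this rule. They were named for their role or their value, with values known. With 2 libraries no gene could be ranked by likeness to a member. Alternatives changed the added value, floor, scaling, row choice, joint rows and fold threshold. Calculations ran in Python 3.11.15 with pandas 2.3.3, scipy 1.17.1 and numpy 2.4.6, and plots in matplotlib 3.10.9.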

Additional observations from a re-analysis of the deposited data

How the results depend on the processing

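No paired analysis was possible because each genotype had 1 library, and for the same reason no library could be left out. The count of oncofetal genes called lower in KO was 0 as reported. It was 1 with 0.01 FPKM added (Gpc3; 13% of all genes), 2 at 1.5-fold (Gpc3 and Cd24a; 22.9%), and 2 with 0.01 FPKM as both floor and addition (Dlk1 and Gpc3; 16.9%), the last chosen after seeing the data. It was 0 in the other 9 settings, and the count called higher was 0 in all. The median log2 KO/WT of the members ranged from -0.83 with 0.01 FPKM added to -0.24 with a floor of 1 FPKM, which only Afp passed. Afp had a log2 KO/WT of -0.53 from its higher row alone and of 0.00 after centring on the expressed genes. H19 was above 0 under that centring only, at +0.04, and Igf2bp3 was above 0 in all 10 settings tried. Cd24a, Gpc3, Dlk1 and Igf2 were below 0 in all 10. For these genes and Igf2bp3, only the changes of scaling could turn a sign, and each raised KO relative to WT. The settings therefore could not turn Igf2bp3, and the counting intervals of Igf2bp3 and Igf2 included 1. The centring moved all genes by 0.24, and equal upper quartiles brought the median of expressed genes to -0.04. Of 236 list medians under these settings, 207 kept within the interval of the median as reported and 6 changed sign. For the shorter lists that interval is the whole range of their genes, so staying within it says little about stability. The 6 that changed sign included the albumin family (+0.07) and cholangiocytes (+0.07) with equal upper quartiles. The others were the same lists (+0.11 each) and erythroid cells (+0.04) after centring, and CD24 partners (+0.03) with a floor of 1 FPKM. At about 0.019 FPKM for 1 fragment on 1 kb, H19, Igf2bp3 and the KO value of Dlk1 each rest on fewer than 7 fragments.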
